A study of Homo sapiens with 6 samples.

Results

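TP63 encodes p63, a transcription factor that basal keratinocytes need to form and keep a stratified epidermis. The gene has a pair of promoters. The upstream one gives TA transcripts, whose protein carries the amino-terminal transactivation domain, and the one inside the gene gives ΔN transcripts, which lack that domain and are the main p63 form known from basal epidermis. Splicing near the 3′ end gives the α, β, γ and δ carboxy termini, of which α holds a sterile alpha motif domain and a transactivation inhibitory domain. TP63 transcripts were taken as all transcript lines carrying the gene's symbol in the 6 transcript assemblies, together with assembled transcripts that share a splice junction with them. This gave 8 transcripts, of 92476 reference transcripts listed over the 6 libraries, and no assembled transcript shared a junction with them. The 8 transcripts are all annotated ones, and GENCODE 29 annotates 14 for TP63.

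The libraries came from HaCaT, a human immortalised keratinocyte line, after lipid transfection with 100 pmol of an siRNA against PSENEN (3 libraries) or with a mismatch siRNA as negative control (3 libraries). The protein encoded by PSENEN belongs to the γ-secretase complex, which cuts Notch receptors and other proteins within the membrane. Total RNA was sequenced, and RNA was extracted 48 and 72 h after transfection, without a statement of which time was sequenced. The labels do not say whether the libraries of a group came from separate cultures, so p-values measure the spread between these libraries. PSENEN itself had 1.75, 2.08 and 1.496 TPM (a transcript level normalised for length and for library depth) in PSENEN siRNA libraries 1 to 3, against 6.58, 12.6 and 7.47 TPM in mismatch siRNA libraries 1 to 3. Every PSENEN siRNA library was below every mismatch siRNA library, and PSENEN passed the test (log2 difference −1.79, SE 0.25, limma adjusted p = 0.0479), a call that ended with any 1 library left out (adjusted p = 0.0903 to 0.157).

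Depth tended to be lower in PSENEN siRNA libraries, with overlap, at 9.16 to 11.9 gigabases of aligned sequence estimated from coverage and FPKM, against 11.5 to 15.6 gigabases in mismatch siRNA libraries. The dominant TP63 transcript was covered 166 to 213 times per base in PSENEN siRNA libraries and 222 to 350 times in mismatch siRNA libraries. All 7 basal keratinocyte markers looked for (KRT5, KRT14, TP63, ITGA6, ITGB4, COL17A1 and DSG3) were present in each library. Their summed level, most of it from KRT5 and KRT14, was 2931 to 3553 TPM in PSENEN siRNA libraries and 4627 to 7599 TPM in mismatch siRNA libraries. This sum moved with the groups, and its part in the TP63 values was not tested. Of the 7 markers, 5 were lower with the PSENEN siRNA without overlap, as were 14.4% of all genes tested, while ITGA6 and COL17A1 overlapped. Of the markers of other cells, the fibroblast gene COL1A1 reached 2.69 TPM at most, the melanocyte gene PMEL 1.95 TPM and the endothelial gene CDH5 1.06 TPM, while COL1A2, PDGFRB, LUM, MLANA, TYR, DCT, CD3E and PECAM1 were not listed. The simple epithelium genes KRT8, KRT18 and EPCAM were abundant in each library, with a sum of 714 to 971 TPM in PSENEN siRNA libraries and 870 to 1102 TPM in mismatch siRNA libraries, and overlapped between groups. CD68, a lysosomal gene used as an immune marker, had 5.56 to 7.05 TPM in PSENEN siRNA libraries and 0.486 to 4.36 TPM in mismatch siRNA libraries, while the leukocyte gene PTPRC was listed in mismatch siRNA library 2 alone. In a bulk culture, fewer cells expressing a gene and less RNA per cell cannot be told apart.

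The sequences that set the TP63 forms apart are given from the GENCODE 29 transcripts (GRCh38, plus strand of chromosome 3), with positions of each stretch. The first pair shows the coding starts of the ΔN exon, at chr3:189789801-189789830, and of TA exon 1, at chr3:189631516-189631545, with the start codon in capitals.
ΔN start: ATGttgtacctggaaaacaatgcccagact
TA start: ATGaattttgaaacttcacggtgtgccacc
The end of exon 8, at chr3:189868687-189868716, shows in capitals the 12 bases that the transcript TP63-212 leaves out by using an earlier splice donor.
Exon 8 end: gtacaaagaacggtgatgGTACGAAGCGCC
The joins that define the 3′ classes are shown as the last 15 bases of the upstream exon in lower case and the first 15 of the downstream exon in capitals. In α, β and δ the downstream exon is the same exon 14, which starts at base 189894206, and the upstream exon is 13 (ending at 189890882), 12 (ending at 189889484) or 11 (ending at 189886551). The γ class joins exon 10 (ending at 189872995) to an exon of its own that starts at 189880064. The transcript TP63-208 joins exon 4 (ending at 189808526) to an exon that starts at 189844197.
α join: cattactccatggatGATCTGGCAAGTCTG
β join: ttgcagcattgtcagGATCTGGCAAGTCTG
δ join: gcatgggagccaacaGATCTGGCAAGTCTG
γ join: cttacttcagaaacaTCTCCTTTCAGCCTG
TP63-208 join: tcggccacctggacgAGTCTCGCCTTGTCT

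Every spliced TP63 transcript in the 6 libraries began at the ΔN exon. Of the 14 annotated transcripts, 8 have the ΔN start and 6 the TA start, and the 8 listed ones were exactly the ΔN ones. The transcripts not listed in any library were TP63-201, TP63-202, TP63-204, TP63-207, TP63-210 and TP63-214. The ΔN exon begins 158233 bases downstream of TA exon 1. ΔN transcripts therefore made up 100% of TP63 TPM in each library, and no level could be given for TA exons 1, 2 and 3 from spliced transcripts. Unspliced fragments on the gene's strand lay over TA exon 1 or the 500 bases before it in 3 libraries. They had 0.585 TPM in PSENEN siRNA library 1, 0.695 TPM in PSENEN siRNA library 2 and 0.558 TPM in mismatch siRNA library 2, and none was listed in the other 3 libraries. These fragments carry no junction, so they were not counted as TA transcripts, and they were present in both groups.

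TP63 as a whole was lower after the PSENEN siRNA, by a difference that did not pass the test across all genes. Summed over its transcripts, TP63 had 56.9, 61.3 and 57.7 TPM in PSENEN siRNA libraries 1 to 3, against 76.8, 82.0 and 78.9 TPM in mismatch siRNA libraries 1 to 3. The groups did not overlap and each was tight, at 58.6 ± 2.32 TPM and 79.3 ± 2.60 TPM (SD, n = 3 each), so the mean with the PSENEN siRNA was 74.0% of that with the mismatch siRNA. On the log2(TPM + 1) scale the difference was −0.43 (SE 0.089, 95% confidence interval −0.64 to −0.22), with a Benjamini-Hochberg adjusted p of 0.112 from limma. TP63 thus stood 326th by p among 16457 genes tested, of which 83 (0.504%) were called at an adjusted p under 0.05, and 57 (0.346%) were called lower. Non-overlapping groups with the PSENEN siRNA lower were seen for 14.4% of all genes tested. Because all TP63 TPM came from the ΔN start, the ΔN level has the same values, with an exact two-sided permutation p of 0.1, the smallest that 3 against 3 libraries allow.

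**Figure D1:**
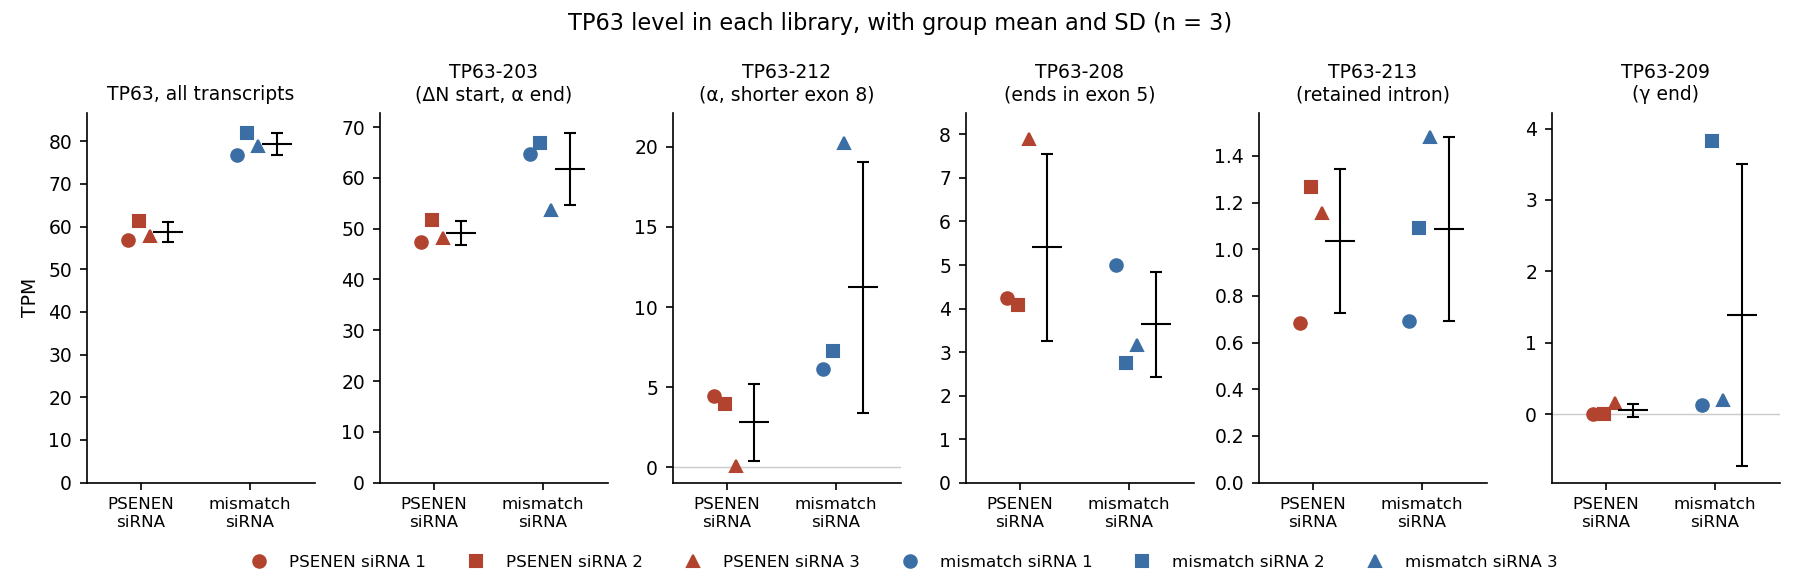
TPM of TP63 and of 5 of its transcripts in each library (points), with the group mean and SD beside them (n = 3), PSENEN siRNA left and mismatch siRNA right, and a vertical scale of its own in each panel. The sum over transcripts is tight within groups (56.9 to 61.3 TPM with the PSENEN siRNA, 76.8 to 82.0 TPM with the mismatch siRNA), while TP63-212 and TP63-209 are spread widely between libraries of a group.

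The ΔN α transcript TP63-203 (ENST00000354600, 12 exons, 4668 bases, 586 codons), the full-length ΔN form with the long 3′ untranslated region, held most of the TP63 level. It had 47.3, 51.7 and 48.3 TPM in PSENEN siRNA libraries and 64.7, 66.9 and 53.7 TPM in mismatch siRNA libraries. No overlap was seen, with mismatch siRNA library 3 closest to the PSENEN siRNA libraries. The log2 difference was −0.32 (SE 0.12), and the limma adjusted p over 26204 reference transcripts was 0.501. Of these transcripts 97 (0.37%) were called, and 10.5% had groups without overlap and the PSENEN siRNA lower. Of the 8 TP63 transcripts, 4 passed the filter (3 or more libraries with a TPM of 1 or more), none of these 4 was called by limma, and TP63-203 was the 1 with an unadjusted p under 0.05.

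TP63-212 (ENST00000456148, 1749 bases, 582 codons) is the other α transcript with a sizeable level. It encodes the same ΔN α form without the 4 codons at the end of exon 8 shown above, and its annotated model holds coding sequence and stop codon only. It had 4.44, 3.93 and 0.0592 TPM in PSENEN siRNA libraries and 6.17, 7.28 and 20.2 TPM in mismatch siRNA libraries. PSENEN siRNA library 3 was far below and mismatch siRNA library 3 far above the other libraries of their groups. The groups did not overlap, as in this direction for 10.5% of reference transcripts tested. The log2 difference was −1.82 (SE 0.78, limma adjusted p = 0.552). It was −1.06 without PSENEN siRNA library 3, −2.78 with a pseudocount of 0.1 and −1.01 with a pseudocount of 5. As a share of transcripts that read through exon 8, the shorter exon 8 took 8.43, 6.88 and 0.119% in PSENEN siRNA libraries and 8.59, 9.18 and 26.7% in mismatch siRNA libraries. The means were 5.14 ± 4.42% and 14.8 ± 10.3% (SD, n = 3 each, exact two-sided permutation p = 0.1). Coverage, in units of the coverage of 1 TPM, gave another order. Over those last bases of exon 8 it was 19.8, 25.1 and 40.6 in PSENEN siRNA libraries and 45.4, 53.1 and 41.0 in mismatch siRNA libraries. Over the whole of exon 8 it was 24.8, 30.8 and 40.6 against 63.6, 60.2 and 59.3. In proportion, mismatch siRNA library 2 dropped less than PSENEN siRNA libraries 1 and 2, so the groups overlapped. The assemblies give coverage per exon of each transcript, so this drop is the exon 8 coverage assigned to transcripts with the shorter exon 8. It rests on the same assignment as the TPM share and is not a separate check of it.

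The α class as a whole, mainly TP63-203 and TP63-212 together, summed to 51.8, 55.7 and 48.4 TPM in PSENEN siRNA libraries and 70.9, 74.2 and 74.0 TPM in mismatch siRNA libraries. The groups did not overlap, at 51.9 ± 3.64 and 73.1 ± 1.83 TPM (SD, n = 3 each), and the exact permutation p was 0.1 (0.143 after Benjamini-Hochberg adjustment over the 10 class values and shares tested). As a share of TP63 TPM, α made up 91.0, 90.8 and 83.8% in PSENEN siRNA libraries and 92.3, 90.5 and 93.7% in mismatch siRNA libraries. The shares overlapped, with PSENEN siRNA library 3 lowest, and the difference of −3.67 percentage points had an exact permutation p of 0.3 (adjusted 0.333). This share difference was −7.63 points when every overlapping transcript on the strand was counted and −0.0018 points from assembled bases. The α class also includes TP63-211 (ENST00000449992), which leaves out exon 4 and stayed under 0.055 TPM in each of the 4 libraries that list it.

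TP63-208 (ENST00000434928, 4 exons, 676 bases) is a short annotated transcript that starts at the ΔN exon, takes in the extra exon after exon 4 shown above and breaks off in exon 5, so its coding sequence is incomplete. It had 4.24, 4.08 and 7.89 TPM in PSENEN siRNA libraries and 5.01, 2.75 and 3.17 TPM in mismatch siRNA libraries. The groups overlapped, with PSENEN siRNA library 3 highest (log2 difference 0.45, SE 0.33, limma adjusted p = 0.746). A pseudocount of 5 gave 0.26, and leaving out PSENEN siRNA library 3 gave 0.18. Its 216-base extra exon, which no other TP63 transcript holds, was covered at 8.70, 8.49 and 10.98 TPM units in PSENEN siRNA libraries and at 9.81, 2.48 and 8.23 TPM units in mismatch siRNA libraries. TP63-213 (ENST00000460036), which runs into the intron after exon 10, had 0.686, 1.27 and 1.15 TPM in PSENEN siRNA libraries and 0.693, 1.09 and 1.48 TPM in mismatch siRNA libraries. Its groups overlapped throughout (log2 difference −0.03, SE 0.25, limma adjusted p = 0.977). Transcripts ending in neither α, β, γ nor δ together took 8.66, 8.73 and 15.7% of TP63 TPM in PSENEN siRNA libraries and 7.42, 4.68 and 5.89% in mismatch siRNA libraries, without overlap (exact permutation p = 0.1, adjusted 0.143).

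By the TPM assigned to transcripts, the β, γ and δ termini were rare. The ΔN β transcript TP63-206 (ENST00000392463, 461 codons), which skips exon 13, had 0.208, 0.251 and 0.127 TPM in PSENEN siRNA libraries and 0.0413, 0.0834 and 0.0951 TPM in mismatch siRNA libraries. The PSENEN siRNA libraries were all above the mismatch siRNA libraries, at 0.195 ± 0.063 against 0.0733 ± 0.0283 TPM (SD, n = 3 each, exact permutation p = 0.1, adjusted 0.143), the opposite order to the α class. The ΔN δ transcript TP63-205 (ENST00000392461, 416 codons), which skips exons 12 and 13, stayed between 0.0146 and 0.0176 TPM in PSENEN siRNA libraries and between 0.00706 and 0.0137 TPM in mismatch siRNA libraries. The ΔN γ transcript TP63-209 (ENST00000437221, 393 codons) was not listed in PSENEN siRNA libraries 1 and 2 and had 0.163 TPM in PSENEN siRNA library 3, against 0.128, 3.83 and 0.198 TPM in mismatch siRNA libraries. One library, mismatch siRNA 2, thus held nearly all γ signal, and its γ exon was covered at 6.57 TPM units, against 0.148 and 0.21 TPM units in the other mismatch siRNA libraries. None of these 3 transcripts passed the filter, and apart from γ in mismatch siRNA library 2 all their values were under 1 TPM, where an order between groups rests on little coverage.

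Coverage along the gene was uneven, and the difference between groups was not the same along it. The coverage of each exon, summed over TP63 transcripts and divided by the coverage that 1 TPM stands for in that library, was examined after the transcript values had been seen. The assemblies give coverage per exon of each transcript and not per base. Over exons 4 to 13, which include those for the DNA-binding and oligomerisation domains, it averaged 25.7, 29.3 and 31.6 TPM units in PSENEN siRNA libraries and 56.3, 47.1 and 46.2 TPM units in mismatch siRNA libraries. Over the 3′ untranslated part of exon 14 it was 61.9, 67.1 and 60.4 TPM units in PSENEN siRNA libraries and 75.6, 84.7 and 69.0 TPM units in mismatch siRNA libraries. The groups did not overlap in either stretch, and the mean with the PSENEN siRNA was 57.9% of that with the mismatch siRNA in exons 4 to 13 and 82.6% in the 3′ untranslated part. The 13 exon segments of the ΔN α transcript were all lower with the PSENEN siRNA without overlap, each with an exact permutation p of 0.1 (0.113 adjusted over 17 segments tested). They belong to the same gene and libraries as the gene level, so they largely repeat its lack of overlap and do not add to it. Gene levels did not overlap in this direction for 14.4% of all genes tested. The log2 ratio of group means lay between −1.005 and −0.73 in exons 4 to 9 and between −0.75 and −0.50 in exons 10 to 13. It was −0.38 in the coding part of exon 14 and −0.28 in its 3′ untranslated part.

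Single exons show how the libraries order. Exon 6, with the widest gap by this ratio, had 18.9, 23.9 and 32.8 TPM units in PSENEN siRNA libraries and 52.5, 50.0 and 49.1 TPM units in mismatch siRNA libraries. The ΔN exon had 22.7, 30.7 and 37.99 TPM units in PSENEN siRNA libraries and 54.1, 47.1 and 38.9 TPM units in mismatch siRNA libraries, so that PSENEN siRNA library 3 came close to mismatch siRNA library 3. Exon 12 had 22.5, 23.9 and 12.5 TPM units in PSENEN siRNA libraries and 31.3, 27.9 and 27.7 TPM units in mismatch siRNA libraries. PSENEN siRNA library 3 was therefore the highest of its group in exons 4 to 9 and the lowest in exons 10 to 13.

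**Figure D2:**
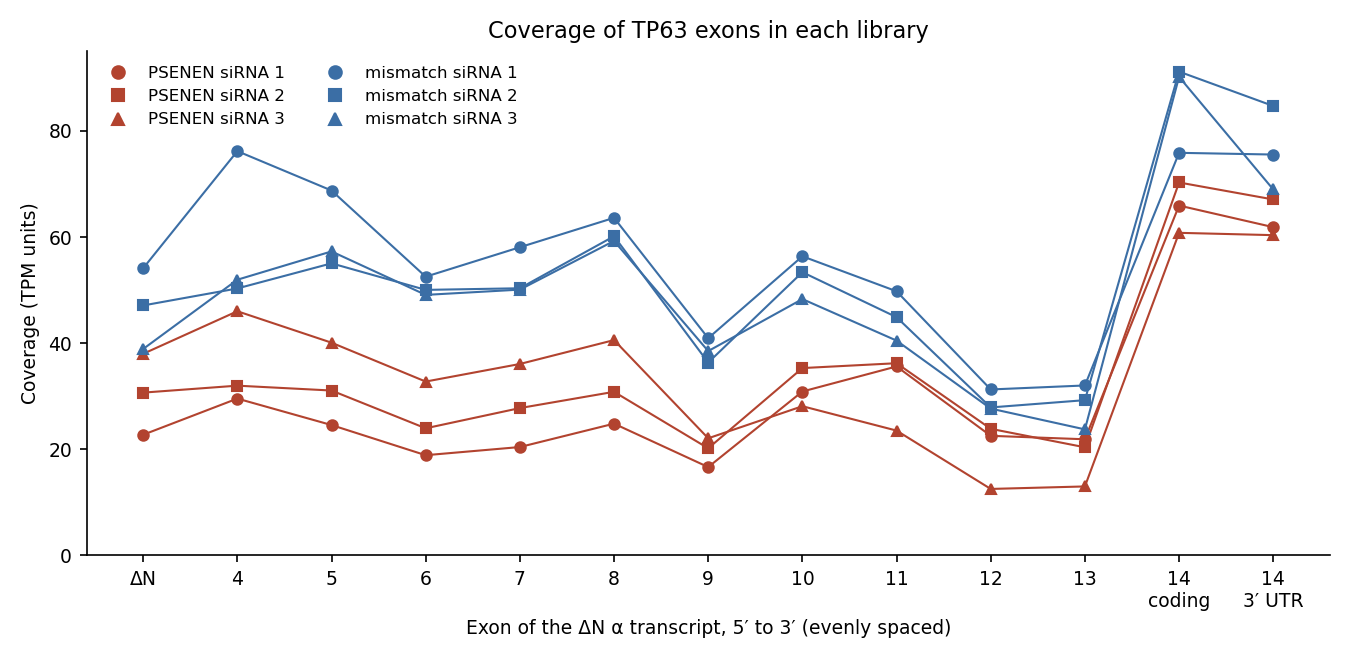
Coverage of the exons of the ΔN α transcript in TPM units (vertical axis), from the ΔN exon to the 2 parts of exon 14 (horizontal axis, exons evenly spaced), 1 line per library. Mismatch siRNA libraries lie above PSENEN siRNA libraries at every segment, the group means are nearest in ratio in the 3′ untranslated part of exon 14, and coverage there (60.4 to 84.7 TPM units) is above that of exons 12 and 13 in each library.

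The ratio of last exon to internal exon coverage was compared for all genes that allow it. For TP63 it was 2.42, 2.30 and 1.91 in PSENEN siRNA libraries and 1.34, 1.81 and 1.54 in mismatch siRNA libraries, without overlap, at 2.21 ± 0.269 and 1.56 ± 0.236 (SD, n = 3 each). In limma over 4644 protein-coding genes with at least 5 TPM in each library, the log2 difference for TP63 was 0.50 (SE 0.18, adjusted p = 0.88). No gene was called by limma for this ratio (0%), 208 had an unadjusted p under 0.05, and 11.3% of the genes had a larger difference than TP63. The median ratio over these genes was 0.605, 0.622 and 0.617 in PSENEN siRNA libraries and 0.604, 0.616 and 0.616 in mismatch siRNA libraries, and these medians overlapped.

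**Figure D3:**
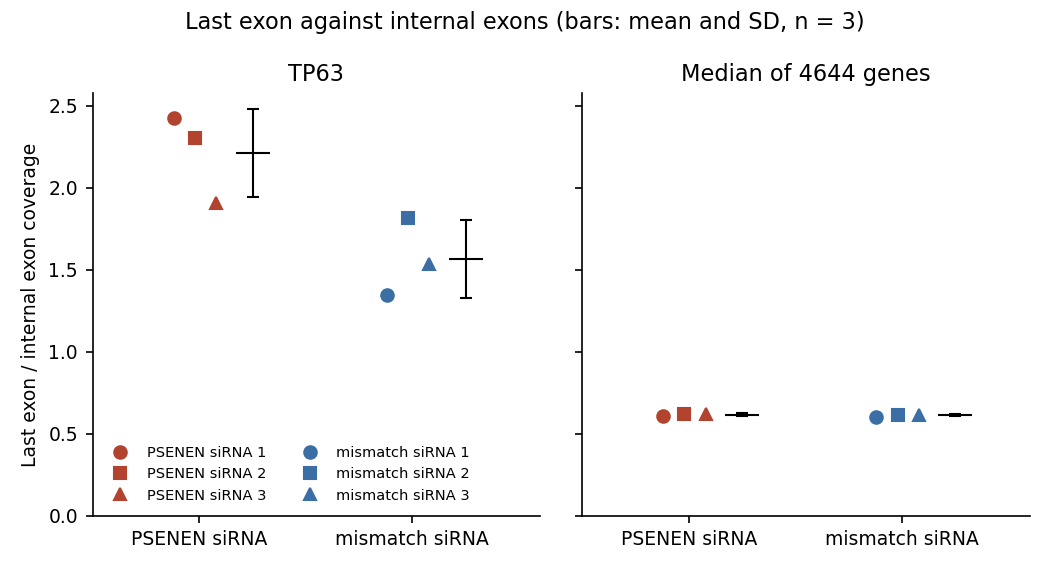
Ratio of last exon to internal exon coverage in each library (points; bars give mean and SD, n = 3), for TP63 on the left and as the median of 4644 genes on the right. TP63 lies between 1.91 and 2.42 with the PSENEN siRNA and between 1.34 and 1.81 with the mismatch siRNA, while the medians of all genes lie between 0.604 and 0.622 in both groups.

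Outside the spliced transcripts, unspliced fragments without a strand lay between TA exon 1 and the ΔN exon in every library. There were 5, 8 and 2 of them in PSENEN siRNA libraries, covering 1405, 2279 and 455 bases, against 12, 17 and 23 in mismatch siRNA libraries, covering 3964, 5630 and 7864 bases. In number of fragments there was no overlap between groups, and no fragment exceeded 1.90 TPM. Depth was 9.16 to 11.9 gigabases in PSENEN siRNA libraries and 11.5 to 15.6 gigabases in mismatch siRNA libraries, and its part in these numbers was not tested. The whole assemblies held 167955 to 181298 transcripts in PSENEN siRNA libraries and 185198 to 193153 in mismatch siRNA libraries, also without overlap. Further fragments lay within 10 kb after the last exon in all 6 libraries, with a highest level of 1.63, 2.44 and 1.28 TPM in PSENEN siRNA libraries and 2.41, 0.799 and 2.02 TPM in mismatch siRNA libraries. MIR944, the microRNA gene inside a TP63 intron, had 0.205, 11.2 and 0.425 TPM in PSENEN siRNA libraries and 0.502, 0.122 and 3.02 TPM in mismatch siRNA libraries, with 1 high library, and was too low for the test.

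Of the genes related to TP63 by family or function, MDM4, which encodes a homologue of the ubiquitin ligase MDM2, had 12.5, 18.2 and 17.5 TPM in PSENEN siRNA libraries and 21.8, 23.4 and 30.4 TPM in mismatch siRNA libraries (log2 difference −0.62, limma adjusted p = 0.225). MDM4 groups did not overlap, and the gene was not called. TP73, which encodes the related factor p73, was low, at 2.22 to 4.47 TPM with the PSENEN siRNA and 3.70 to 5.76 TPM with the mismatch siRNA, with overlap.

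Of 28 genes that p63 is reported to activate in keratinocytes, 26 passed the filter and none was called by limma, while 11 had an unadjusted p under 0.05, as had 14.6% of all genes tested. The median log2 difference of the 26 was −0.16, beside −0.05 over all genes tested, and 19 were below 0. Groups did not overlap for 11 of the 26 (8 lower and 3 higher with the PSENEN siRNA), as for 22.3% of all genes tested. KRT14, a basal layer keratin, had 1559, 1419 and 1442 TPM in PSENEN siRNA libraries and 2610, 3913 and 4166 TPM in mismatch siRNA libraries (log2 difference −1.25, SE 0.19, adjusted p = 0.0578). KRT5, its partner keratin, had 1388, 1175 and 968 TPM in PSENEN siRNA libraries and 1427, 2225 and 2644 TPM in mismatch siRNA libraries (log2 difference −0.80, limma adjusted p = 0.226). The groups did not overlap for either keratin, and with mismatch siRNA library 1 left out KRT14 was called (limma adjusted p = 0.0254), as it was with a filter of 5 TPM (limma adjusted p = 0.0412). MIR205HG, the host gene of miR-205, had 299 to 690 TPM with the PSENEN siRNA and 550 to 823 TPM with the mismatch siRNA, with overlap.

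CLDN1, a tight junction gene that is both a reported p63 target and a gene near TP63 on chromosome 3, was higher with the PSENEN siRNA. It had 119, 119 and 119 TPM in PSENEN siRNA libraries and 82.3, 78.6 and 76.7 TPM in mismatch siRNA libraries, without overlap (log2 difference 0.58, SE 0.084, adjusted p = 0.0535). This p crossed the threshold under several other settings, with adjusted p between 0.0172 and 0.0484 in 6 of them. P3H2, a collagen prolyl hydroxylase gene next to TP63, had 24.8, 24.9 and 24.9 TPM in PSENEN siRNA libraries and 26.7, 24.0 and 23.4 TPM in mismatch siRNA libraries, with overlap. Of the 8 overlapping or neighbouring genes 3 were tested (CLDN1, P3H2 and TPRG1) and none was called. TP63-AS1 and TMEM207 were not listed.

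The 5 genes that p63 is reported to repress were all tested and none was called, while 4 had an unadjusted p under 0.05, as had 14.6% of all genes tested. Groups did not overlap for 4 of the 5 (3 lower and 1 higher with the PSENEN siRNA), as for 22.3% of all genes tested. Their median log2 difference was −0.28, with 3 below and 2 above 0. SFN, which encodes 14-3-3 sigma, had 506, 474 and 467 TPM in PSENEN siRNA libraries and 572, 624 and 649 TPM in mismatch siRNA libraries (limma adjusted p = 0.167). CDKN1A, the cell cycle inhibitor p21, had 25.9, 23.8 and 21.5 TPM in PSENEN siRNA libraries and 31.3, 40.3 and 41.5 TPM in mismatch siRNA libraries (limma adjusted p = 0.134). IGFBP3, a binding protein of insulin-like growth factors, had 225, 205 and 216 TPM in PSENEN siRNA libraries and 93.1, 108 and 182 TPM in mismatch siRNA libraries (limma adjusted p = 0.211). SFN and CDKN1A were lower and IGFBP3 was higher with the PSENEN siRNA, and HES1 was the other gene without overlap (16.7 to 18.9 TPM in PSENEN siRNA libraries and 20.7 to 22.1 TPM in mismatch siRNA libraries).

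Of 17 regulators and partners of p63, all were tested and none was called, and 5 had an unadjusted p under 0.05, as had 14.6% of all genes tested. The median log2 difference was 0.05, with 10 above and 7 below 0. For 7 of the 17 the groups did not overlap (3 lower and 4 higher with the PSENEN siRNA), as for 22.3% of all genes tested. PCBP1, an RNA-binding protein, had 181, 184 and 192 TPM in PSENEN siRNA libraries and 211, 218 and 204 TPM in mismatch siRNA libraries (adjusted p = 0.371). YAP1, a transcriptional co-activator, had 112, 91.3 and 111 TPM in PSENEN siRNA libraries and 104, 109 and 118 TPM in mismatch siRNA libraries (adjusted p = 0.801). KLF5, a zinc finger transcription factor, had 82.8, 60.8 and 76.1 TPM in PSENEN siRNA libraries and 52.2, 53.9 and 81.4 TPM in mismatch siRNA libraries (limma adjusted p = 0.637). TFAP2C, a transcription factor of the AP-2 family singled out after its values were seen, had 17.0, 13.4 and 14.4 TPM in PSENEN siRNA libraries and 26.2, 32.8 and 26.6 TPM in mismatch siRNA libraries, without overlap (log2 difference −0.89, SE 0.15, adjusted p = 0.0628).

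**Figure D4:**
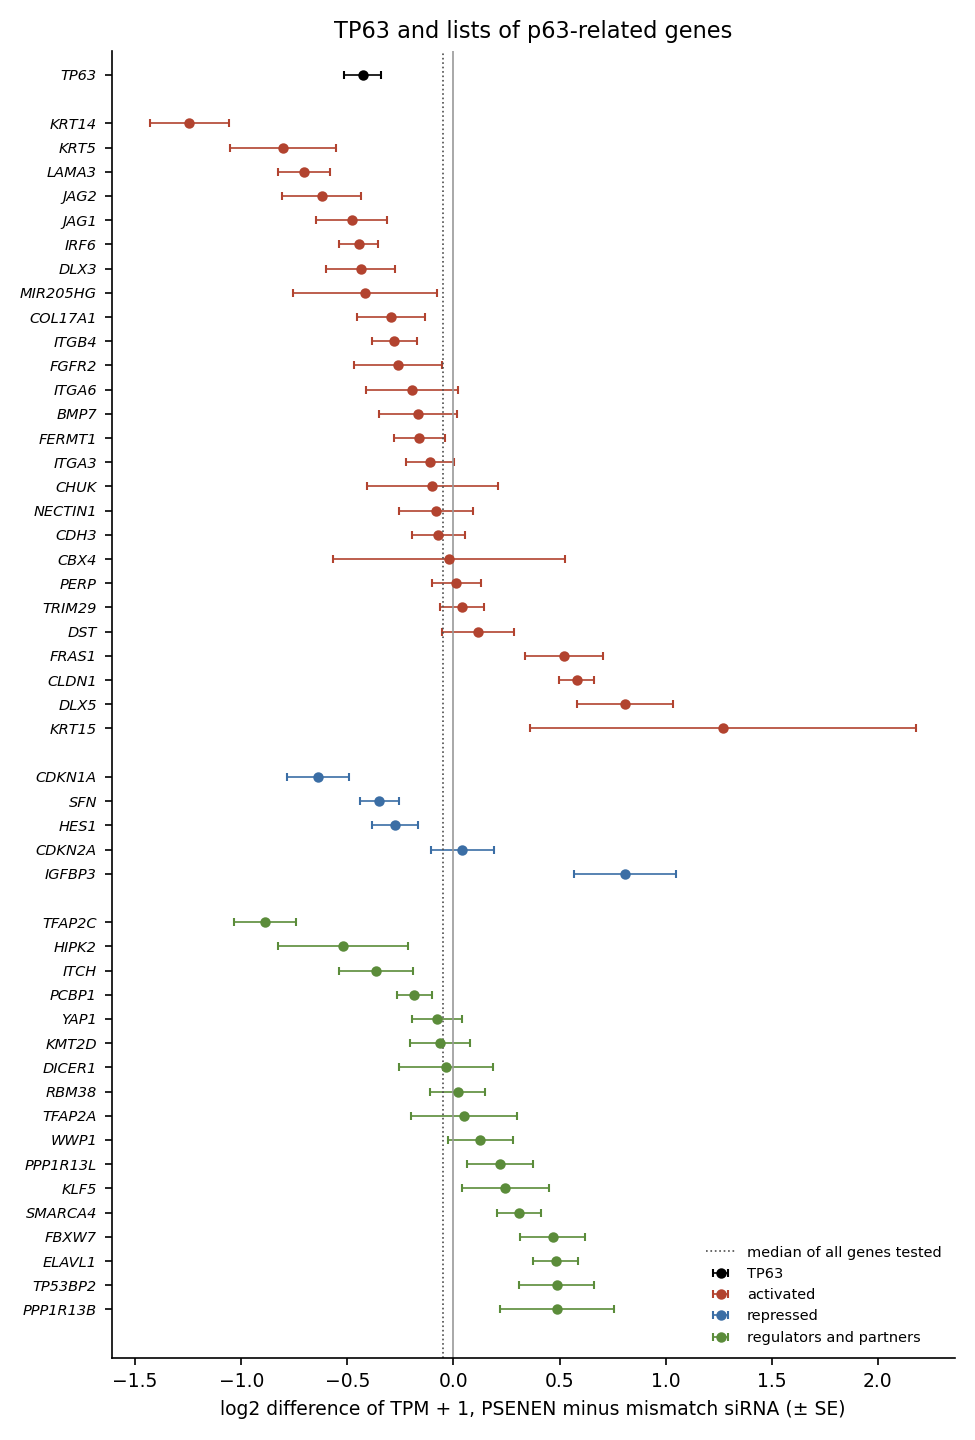
Log2 difference of TPM + 1, PSENEN siRNA minus mismatch siRNA, with its SE for TP63 and for each tested gene of the lists of genes that p63 is reported to activate, of genes it is reported to repress, and of its regulators and partners, with the median of all genes tested as a dotted line (−0.05). The genes spread on both sides of 0, from −1.25 for KRT14 to 1.27 for KRT15, and none passed an adjusted p of 0.05.

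Genes whose levels over the 6 libraries ran close to that of TP63 were found among 9033 tested protein-coding genes with a mean of at least 5 TPM, by the root mean square difference of log2(TPM + 1) after centring each gene on its mean. Among the 5 closest were CNPY3, an endoplasmic reticulum chaperone of Toll-like receptors (0.0326), CHMP5, a subunit of the ESCRT-III membrane remodelling complex (0.0328), RAB20, a small GTPase (0.0408), and HOOK3, a cargo adaptor on microtubules (0.0412). The median of this difference over all genes compared was 0.283, and a gene with the same level in all 6 libraries would stand at 0.218. CHMP5, for example, had 27.2, 27.4 and 25.9 TPM in PSENEN siRNA libraries and 36.0, 38.2 and 37.0 TPM in mismatch siRNA libraries. None of these 4 genes was called, with limma adjusted p from 0.115 to 0.269.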

How the data were processed

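The authors deposited 1 StringTie transcript assembly per library, per the file headers, with TPM, FPKM and coverage (other values per transcript, not counts) in its attribute column. Read length, strandedness and the aligner behind these assemblies are not given in the sources. Mouse builds (mm8, mm9) and Bowtie 0.12.2 are named in the submitters' processing notes although the transcripts are human. Exon structures of nearly all reference transcripts were those of GENCODE 29 on GRCh38. Files hold no counts, so no counting intervals are given and depth was estimated as coverage over FPKM.

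Gene TPM was the sum over reference transcripts and assembled transcripts that share an annotated intron. Groups were compared with limma 3.58.1 (R 4.3.3, trend) on log2(TPM + 1), which understates differences of low genes, over all genes or reference transcripts that reached 1 TPM in 3 or more libraries, with Benjamini-Hochberg adjustment over the whole table and calls at 0.05. Single values were compared by exact two-sided permutation. On simulated data for the gene comparison (16457 genes), 61 of 100 changes of 2-fold and 91 of 100 of 4-fold were recovered, with 7 false among 159 calls. For the transcript comparison (26204 transcripts), these were 23 and 67 of 100, with 10 false among 100 calls. In both, changes were planted only at 2-fold and 4-fold and at mean levels above 10 TPM. Recovery at lower levels, or of changes under 2-fold such as that of TP63, was not measured. Start classes went by the first exon (TA or ΔN) and 3′ classes by splice junctions. No 31-base word of TP63-203 occurs in an annotated transcript of another gene. Exon coverage and the last exon ratio (genes with at least 5 exons and a last exon of at least 500 bases) were added after the values had been seen.

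The members, gene lists and tests were chosen with earlier results of these data known. Named genes are TP63 and its transcripts, from each of the 5 p63 lists up to 4 called members or else the 3 most abundant, and the 5 genes most like TP63. Some of the genes this rule names are not reported here. Other pseudocounts, filters, scalings, FPKM, assembled bases, reference transcripts only, all overlapping transcripts, a replicate block and each library left out were tried. Parsing and figures used matplotlib 3.10.9, SciPy 1.17.1, pandas 2.3.3, NumPy 2.4.6 and Python 3.11.15.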

Additional observations from a re-analysis of the deposited data

How the results depend on the processing

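The TP63 gene difference kept its direction and missed the threshold under all 18 alternatives (−0.46 to −0.32, adjusted p 0.0972 to 0.311), and none of the TP63 transcripts was called under any of the 15 tried. The PSENEN call was lost under 14 of 17. The difference from the ΔN start was −0.38 with median-of-ratios scaling, −0.35 with FPKM and −0.32 with assembled bases, and −0.46 to −0.40 with 1 library left out. Counting every overlapping transcript on the strand put unspliced fragments into the TA class (difference 0.26). It also added MIR944, which has neither start, at 11.2 TPM in PSENEN siRNA library 2 and at most 3.02 TPM in any other library. With both counted, the PSENEN minus mismatch siRNA difference was −4.41 percentage points in the ΔN share (0 otherwise) and −7.63 in the α share. The α share difference was −0.0018 with assembled bases and −4.89 to −1.31 with 1 library left out. TP63-213 ranged from −0.17 to 0.10 with 1 library left out, and was above 0 without PSENEN siRNA library 1 or without mismatch siRNA library 3. Genes called numbered 55 with a pseudocount of 0.1, 142 with assembled bases, 6 with the replicate block and 9 to 12 with 1 library left out. Transcripts called numbered 40 with no filter, 34 at 5 TPM or more, 0 with the replicate block (1938 with an unadjusted p under 0.05) and 20 to 39 with 1 library left out. In the p63 lists, 1 gene (CLDN1) was called with no filter, FPKM, median-of-ratios, quantile normalization or assembled bases, 3 (CLDN1, KRT14 and TFAP2C) at 5 TPM or more, and 0 to 1 with 1 library left out. Fewer samples enter each left-out fit, and the cause of the other shifts was not tested. Same-numbered libraries did not deviate together (correlations −0.055, 0.0034 and −0.013 across genes), which cannot show whether they were handled as pairs. The labels state no pairing, so the replicate block is shown only as an alternative. Without counts, values under 1 TPM cannot be given a counting error.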
